A study of Mus musculus with 40 samples.

Results

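The cytochrome P450 family 2 genes (Cyp2) were examined in the duodenum, ileum and liver of mice with and without small bowel resection (SBR), together with Nr1i2 and Nr1i3, which encode the nuclear receptors PXR and CAR. The set was defined by name and level: all gene symbols of the expression table made of Cyp2, a subfamily letter and a number, with a mean log2 TPM (transcript abundance scaled for gene length and library depth) of at least 1 in at least 1 tissue. The 35 symbols of that form all met the level, and with both receptor genes the set held 37 of the 15958 genes in the table. It comprised 4 Cyp2a, 2 Cyp2b, 14 Cyp2c, 7 Cyp2d and 3 Cyp2j genes, and 1 each of Cyp2e, Cyp2f, Cyp2r, Cyp2s and Cyp2u.

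All mice were wild type C57BL/6 males that had surgery at 8 weeks of age, either a sham operation or, per the labels, a resection of 50 to 60% of the small bowel (the study's methods give a larger share). From 3 weeks after surgery they received vehicle or WUSTL0717, a gut-restricted agonist of the liver X receptors (LXR) that is an amide analog of GW3965, at 30 mg/kg daily by mouth for 7 weeks. The 3 groups were sham vehicle, SBR vehicle and SBR WUSTL0717, and sham with the drug was not analysed here, so that its effect was measured only after resection. The duodenum gave 3, 4 and 4 libraries in that order, the ileum beyond the anastomosis 3, 4 and 4, and the liver 5, 8 and 5, which made 40 bulk RNA-seq libraries. The study gives its group sizes as mice, and the labels do not tie a library to a mouse.

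Family 2 cytochromes are haem enzymes of the endoplasmic reticulum that receive electrons from the reductase Por and add oxygen to drugs, steroids, fatty acids, bile acids and vitamin D. Hepatocytes hold most of them, and enterocytes carry a smaller set that meets ingested compounds first. PXR and CAR, each paired with RXR, are the receptors best known for raising Cyp2b and Cyp2c genes in response to foreign compounds, and several mouse Cyp2 genes are known for male-biased (Cyp2d9) or female-biased (Cyp2a4, Cyp2b9) expression in liver under the pattern of growth hormone release.

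The values are log2 TPM that the authors had corrected for batch effects with ComBat, which rescales each gene within each batch. The labels put all intestinal libraries in one batch and all livers in another; that these were the batches corrected is read from the values, since the methods do not name them. Levels of a gene were therefore compared only within the intestine or within the liver, levels of different genes were not compared, and the size of a fold change carries that rescaling, whereas the order of libraries and their overlap do not. Of the 37 genes, 15 had in the intestine a lowest value shared exactly by several libraries, as a TPM of 0 would give after such a correction, and 9 of them were at it in at least 11 of 22 libraries. Genes with such ties made up 5.55% of the whole table. Cyp2c54 was listed at 0 in all 22 intestinal libraries, and its liver values appear to have kept an uncorrected scale, so that its fold changes in liver should not be set beside those of the other genes by size.

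Most of the genes lie in 4 clusters of the mouse genome (GRCm38). On chromosome 7, 8 genes of the 2a, 2b, 2f and 2s subfamilies lie between 25802475 and 27133660. On chromosome 19, 13 Cyp2c genes lie between 39007019 and 40187333, and on chromosome 15 the 7 Cyp2d genes lie between 82370527 and 82794294. The 3 Cyp2j genes form a cluster of 148 kb on chromosome 4. The genes that stand alone are Cyp2c23 (chr19:44005022-44029208), Cyp2e1 (chr7:140763739-140774987), Cyp2r1 (chr7:114549682-114562972), Cyp2u1 (chr3:131288441-131303227), Nr1i2 (chr16:38248323-38294824) and Nr1i3 (chr1:171213970-171220701). For 8 of the 35 Cyp2 genes the closest member was over 90% identical in transcript sequence. The authors counted uniquely aligned reads. Windows of 150 bases identical to another gene occurred in 16 of the 35 transcripts, at most in 29.1% of the windows (Cyp2c40), and in none of Cyp2c29, Cyp2c55, Cyp2b10, Cyp2b9, Cyp2u1, Cyp2e1 and Cyp2f2. Cyp2c66 shared 5.5% of its windows with Cyp2c65, Cyp2a4 4.2% with Cyp2a5, and Cyp2c54 3.0% with Cyp2c50, so values of these single copies are less certain.

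Upstream sequences are shown for the 4 genes that rose with WUSTL0717 in the duodenum and for 4 that moved with resection in the liver. They are the bases before the transcription start in RefSeq (GRCm38.p6), 5′ to 3′, up to 250 bases, ended before any base that lies in an exon of the gene in GENCODE. GENCODE starts Cyp2c29 at 39269405 and Cyp2d9 at 82433437, upstream of the RefSeq start, so the windows of these 2 genes lie inside the annotated gene. Capitals mark a nuclear receptor hexamer, AGNTCA, or an HNF4-type core, CAAAGTCC, on either strand; no matches overlap in these sequences. The windows are Cyp2c29 at chr19:39286835-39287073, Cyp2c55 at chr19:39006769-39007018, Cyp2c66 at chr19:39113648-39113897 and Cyp2b10 at chr7:25897408-25897619, then Cyp2b9 at chr7:26173159-26173408, Cyp2a4 at chr7:26306942-26307168, Cyp2a5 at chr7:26835089-26835304 and Cyp2d9 at chr15:82452127-82452333, all on the plus strand.
Cyp2c29: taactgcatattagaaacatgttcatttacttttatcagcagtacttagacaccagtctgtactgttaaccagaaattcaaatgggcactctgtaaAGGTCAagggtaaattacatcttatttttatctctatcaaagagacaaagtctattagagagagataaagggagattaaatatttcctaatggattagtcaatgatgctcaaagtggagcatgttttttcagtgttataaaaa
Cyp2c55: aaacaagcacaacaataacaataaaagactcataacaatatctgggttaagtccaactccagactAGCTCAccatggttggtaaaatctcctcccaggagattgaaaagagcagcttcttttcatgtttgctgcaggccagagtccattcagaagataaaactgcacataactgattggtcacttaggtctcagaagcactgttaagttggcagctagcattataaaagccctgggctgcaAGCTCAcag
Cyp2c66: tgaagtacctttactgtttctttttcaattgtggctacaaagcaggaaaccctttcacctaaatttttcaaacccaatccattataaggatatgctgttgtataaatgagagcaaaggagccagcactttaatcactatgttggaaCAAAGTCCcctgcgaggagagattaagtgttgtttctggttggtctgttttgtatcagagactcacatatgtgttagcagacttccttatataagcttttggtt
Cyp2b10: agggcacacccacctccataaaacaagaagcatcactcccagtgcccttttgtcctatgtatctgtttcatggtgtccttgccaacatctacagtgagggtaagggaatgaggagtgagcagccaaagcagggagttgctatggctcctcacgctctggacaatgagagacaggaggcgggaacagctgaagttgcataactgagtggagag
Cyp2b9: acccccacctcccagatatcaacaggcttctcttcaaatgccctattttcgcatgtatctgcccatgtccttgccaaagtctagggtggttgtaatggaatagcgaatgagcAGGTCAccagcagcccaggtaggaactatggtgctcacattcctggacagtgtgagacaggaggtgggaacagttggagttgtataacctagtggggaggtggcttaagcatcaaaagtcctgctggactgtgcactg
Cyp2a4: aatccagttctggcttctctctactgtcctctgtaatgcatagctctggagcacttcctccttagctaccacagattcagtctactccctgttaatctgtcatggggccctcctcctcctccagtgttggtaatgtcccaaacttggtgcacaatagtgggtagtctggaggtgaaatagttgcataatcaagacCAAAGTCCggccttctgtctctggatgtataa
Cyp2a5: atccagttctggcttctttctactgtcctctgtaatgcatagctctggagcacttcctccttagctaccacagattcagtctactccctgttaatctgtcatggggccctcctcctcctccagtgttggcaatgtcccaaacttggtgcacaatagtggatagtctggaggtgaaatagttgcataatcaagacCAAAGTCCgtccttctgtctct
Cyp2d9: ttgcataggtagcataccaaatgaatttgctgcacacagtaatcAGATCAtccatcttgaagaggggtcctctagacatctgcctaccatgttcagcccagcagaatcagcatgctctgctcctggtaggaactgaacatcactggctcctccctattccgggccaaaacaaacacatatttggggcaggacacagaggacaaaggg

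RefSeq windows of 250 bases were found for 32 of the 37 genes (33 windows); Cyp2c23, Cyp2c54, Cyp2d12, Cyp2d22 and Cyp2u1 were not matched. The hexamer AGNTCA was in 16 of these 33 windows (48.5%) and in 41.3% of all 32851 windows. Pairs of the hexamer in the same direction at a spacing of 4 (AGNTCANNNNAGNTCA), 3 (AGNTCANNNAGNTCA) or 1 (AGNTCANAGNTCA) were in none of the 33 and in 0.103%, 0.052% and 0.183% of all windows. The palindrome TTCNNNGAA, of the kind STAT5 binds, was in none of the 33 and in 7.02% of all. CAAAGTCC was in 8 of the 33 windows (Cyp2a4, Cyp2a5, Cyp2c40, Cyp2c65, Cyp2c66, Cyp2c67, Cyp2c68 and Cyp2c70) and in 1.20% of all. Most of these windows share sequence, so the 8 are not independent. Those of Cyp2c65 and Cyp2c66 were 74.6% identical, of Cyp2c40 and Cyp2c68 73.5%, and of Cyp2c67 and Cyp2c68 63.1%. Among the genes that rose in the duodenum, Cyp2c29 held 1 hexamer, Cyp2c55 2, and Cyp2b10 neither motif, while Cyp2c66 held the HNF4-type core. The windows of Cyp2a4 and Cyp2a5 were 97.6% identical, those of Cyp2d9 and Cyp2d10 82.8%, and those of Cyp2b9 and Cyp2b10 71.0%.

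The median log2 TPM of a library ranged from 2.13 to 3.09 in the duodenum, 3.18 to 3.82 in the ileum and 3.05 to 3.77 in the liver; the files hold no counts, so the depth of the libraries is unknown. Summed markers set some libraries apart. SBR vehicle liver 7 had a summed log2 level of pancreatic acinar markers of 11.72, against 5.11 to 5.57 in the other 7, and SBR vehicle liver 2 had the lowest hepatocyte marker level of its group, 9.64. SBR WUSTL0717 ileum 2 had a hepatocyte marker level of 13.41, against 10.14 to 10.64 in the other 3. Acinar markers ranged from 4.93 to 10.75 across duodenal libraries of all 3 groups. The labelled tissues could not be checked across batches, since both were at similar levels after ComBat: summed enterocyte markers were 12.24 to 13.57 in liver and 10.86 to 14.73 in intestinal libraries.

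**Figure D1:**
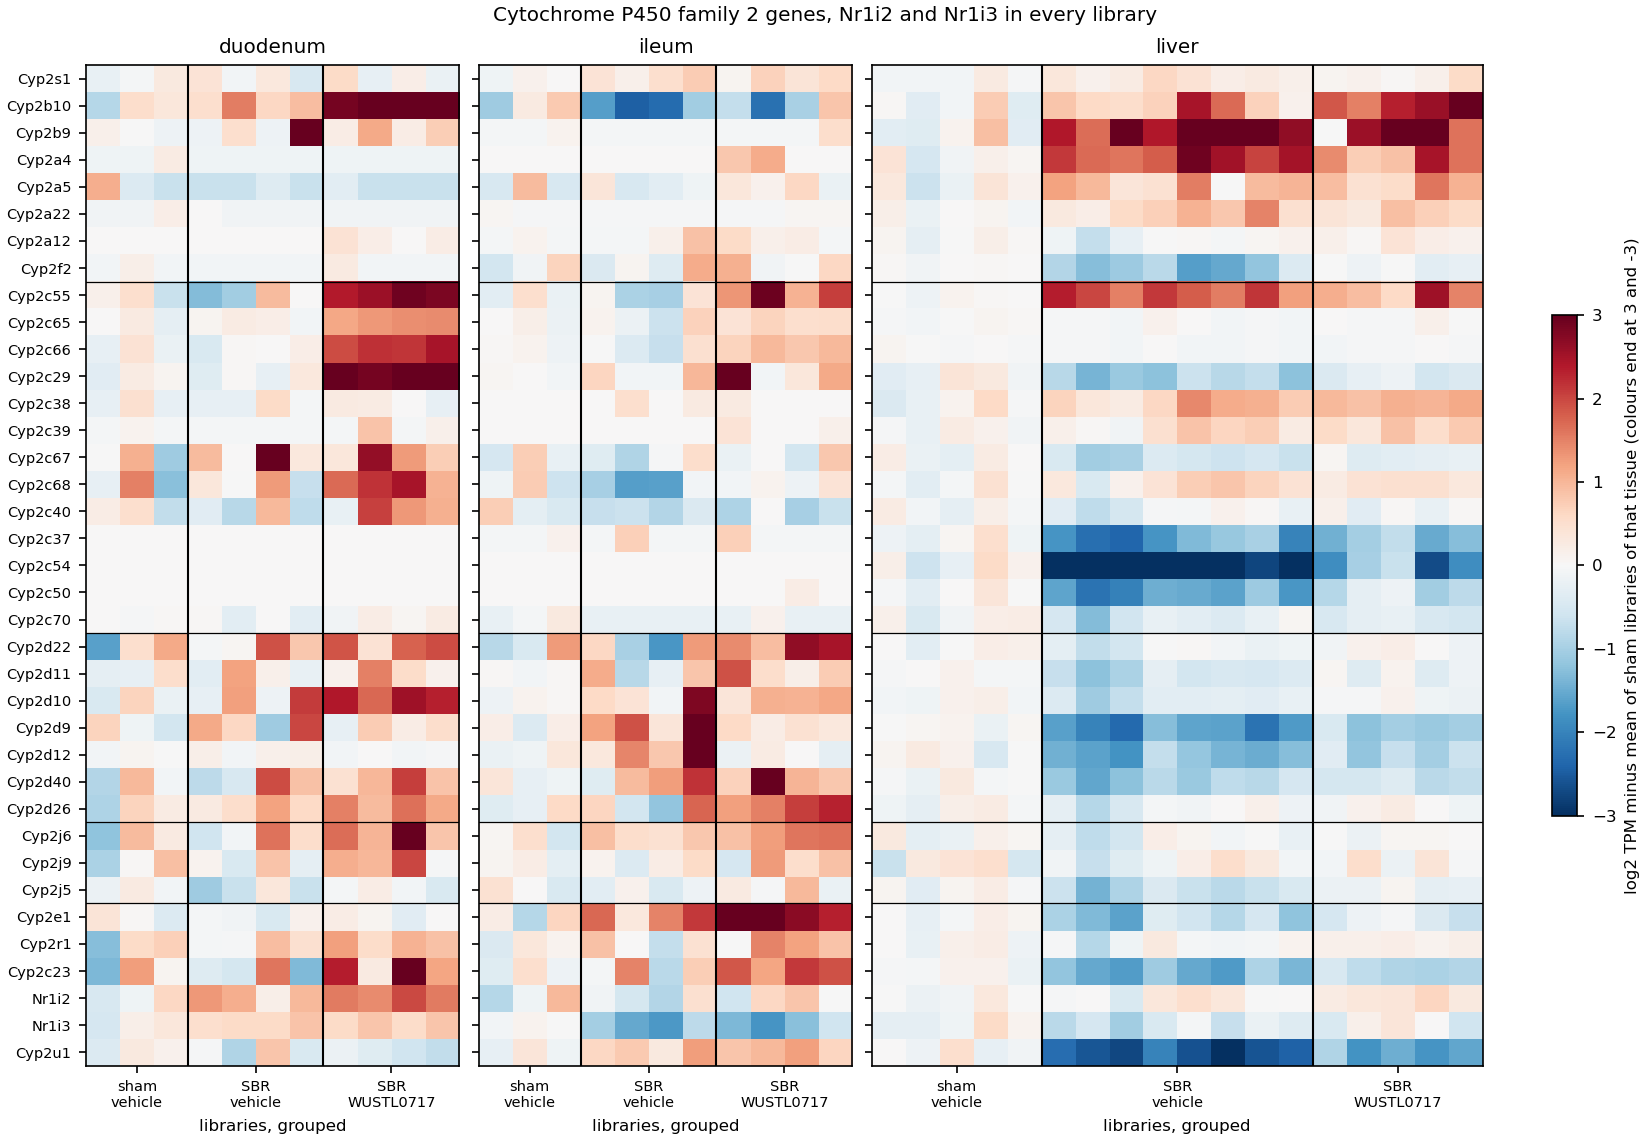
Each row is a gene, ordered by cluster and position, each column a library, and the colour is its log2 TPM minus the mean of the sham libraries of that tissue (colours end at 3 and -3). Blocks of change are visible in SBR livers, and 4 genes rose in the duodenum of SBR WUSTL0717 mice.

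In sham mice, Cyp2d26, Cyp2c65 and Nr1i3 were higher in the duodenum than in the ileum, and Cyp2u1 was lower. Of 36 genes tested, 4 were higher in the duodenum (3.83% of all genes tested) and 1 was lower (10.8%; limma, Benjamini-Hochberg adjusted over all genes). The fourth gene called higher, Cyp2c66, reached the mean of 1 needed for testing only through the duodenum, where it is high, so its test adds no support. The median difference over these 36 genes was 0.11, beside -0.52 over all genes. Cyp2u1, a fatty acid hydroxylase, was 1.21, 1.91 and 1.76 in the 3 sham duodena and 4.03, 4.64 and 4.14 in the 3 sham ilea, a log2 difference of -2.64 (SE 0.38, adjusted p = 4.18e-05). Cyp2d26 went the other way, with 8.26, 9.85 and 9.42 in the duodenum and 6.23, 6.35 and 7.19 in the ileum, a difference of 2.59 (SE 0.60, adjusted p = 0.0053). The neighbours Cyp2c65 (3.51, 3.76 and 3.22 against 2.19, 2.35 and 2.01) and Cyp2c66 were higher in the duodenum by 1.31 (SE 0.30, adjusted p = 0.00464) and 1.77 (SE 0.29, adjusted p = 0.00024). Sham levels of Cyp2c66 were 2.02, 2.69 and 2.05 in the duodenum and 0.53, 0.60 and 0.33 in the ileum, without overlap. Nr1i3, the gene of CAR, was 3.55, 4.25 and 4.39 in the duodenum and 2.599, 2.79 and 2.68 in the ileum, a difference of 1.37 (SE 0.32, adjusted p = 0.00649). Groups of 3 do not allow an exact permutation p below 0.1, which all 5 genes reached. Centring libraries on their medians moved the median of all genes from -0.52 to -0.07 and gave 8 calls in place of 5. Enterocyte markers differed between these regions too, 3 of 8 higher and 4 lower in the duodenum, all 6 Paneth markers were lower and all 7 acinar markers higher; their part in these differences was not tested.

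Resection alone gave no call among the family 2 genes in the duodenum. Of 35 genes tested, 0 passed an adjusted p of 0.05 (0% of all 15093 genes), and 0 had an unadjusted p below 0.05, against 16.1% of all genes. The differences were positive for 18 and negative for 14, with a median of 0.01 beside -0.36 over all genes, and centring libraries moved that of all genes to 0.04. The exact permutation test cannot go below 0.0571 with 4 libraries against 3. Of the 37 genes, 1 had every SBR library above every sham library (3.32% of all genes did) and 0 had them below (6.51%). It was Nr1i3, with 3.55, 4.25 and 4.39 in sham and 4.56, 4.63, 4.63 and 4.93 after SBR, a log2 difference of 0.62 (SE 0.35, adjusted p = 0.368). Nr1i2, the gene of PXR, was 5.55, 5.90 and 6.66 in sham and 7.33, 7.12, 6.21 and 7.02 after SBR (0.88, SE 0.43, adjusted p = 0.325). The highest sham library of Nr1i2 lay within the SBR range.

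The classical CAR target Cyp2b10 was 1.54, 2.92 and 2.72 in sham and 2.90, 3.92, 3.02 and 3.33 after SBR (0.90, SE 0.42, adjusted p = 0.313), with a 95% interval of -0.01 to 1.80. Its groups overlapped by 1 library. The largest positive difference was that of Cyp2c67, 3.37, 4.45 and 2.32 in sham and 4.33, 3.39, 6.60 and 3.70 after SBR (1.13, SE 0.80, adjusted p = 0.47), followed by Cyp2b9, 1.57, 1.40 and 1.26 in sham against 1.26, 1.93, 1.26 and 4.81 after SBR (0.91, SE 0.70, adjusted p = 0.501). That of Cyp2b9 rested on SBR vehicle library 4 alone. The most negative were Cyp2a5, 6.06, 4.56 and 4.30 in sham and 4.30, 4.30, 4.59 and 4.30 after SBR (-0.60, SE 0.43, adjusted p = 0.471), and Cyp2j5, 4.09, 4.52 and 4.18 in sham against 3.20, 3.60, 4.61 and 3.59 after SBR (-0.51, SE 0.39, adjusted p = 0.498). Groups of both genes overlapped.

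Cyp2d9 was 4.32, 3.52 and 3.10 in sham and 4.79, 4.28, 2.58 and 5.64 after SBR (0.68, SE 0.62, adjusted p = 0.576). Cyp2e1, the ethanol and acetaminophen oxidase, was 5.17, 4.81 and 4.38 in sham against 4.72, 4.69, 4.33 and 4.91 after SBR (-0.12), and Cyp2r1, a vitamin D hydroxylase, 1.21, 3.06 and 3.20 in sham against 2.42, 2.44, 3.41 and 2.98 after SBR (0.32). Cyp2c29 and Cyp2c55 differed by -0.06 and -0.34. No group of these genes stood apart, and the signs for Cyp2c29, Cyp2c55 and Cyp2e1 flipped when libraries were centred (0.34, 0.0612 and 0.28).

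WUSTL0717 raised 4 family 2 genes in the duodenum of resected mice: Cyp2c29, Cyp2c55 and Cyp2c66 of the chromosome 19 cluster and Cyp2b10 of the chromosome 7 cluster. These were 4 of 35 genes tested, against 0.252% of all genes called higher, and none was called lower. Cyp2c29, a hepatic and intestinal enzyme known as a CAR and PXR target, was 2.72, 3.11, 2.83 and 3.40 in the 4 SBR vehicle duodena and 6.09, 5.94, 7.18 and 6.76 in the 4 SBR WUSTL0717 duodena. All 4 treated libraries lay above all 4 vehicle libraries and above the sham values of 2.75, 3.32 and 3.17, and the log2 fold change was 3.48 (SE 0.37, adjusted p = 0.00306). Cyp2c55, an arachidonic acid hydroxylase also known as a PXR and CAR target, was 0.17, 0.42, 2.42 and 1.47 with vehicle and 3.83, 4.02, 4.38 and 4.29 with WUSTL0717. The groups were apart by more than 1 log2 unit, and the fold change was 3.01 (SE 0.47, adjusted p = 0.0213). Sham duodena had Cyp2c55 at 1.62, 1.97 and 0.79, within the vehicle range.

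Cyp2c66, which lies beside Cyp2c65, was 1.79, 2.28, 2.25 and 2.46 with vehicle and 4.21, 4.45, 4.40 and 4.74 with WUSTL0717, a fold change of 2.25 (SE 0.30, adjusted p = 0.012). Cyp2b10 was 2.90, 3.92, 3.02 and 3.33 with vehicle and 5.28, 5.49, 5.59 and 5.69 with WUSTL0717, a fold change of 2.22 (SE 0.38, adjusted p = 0.0328). The treated libraries of both genes were tightly grouped and above every vehicle and sham library. Cyp2c65 showed the same separation, 3.59, 3.75, 3.70 and 3.42 against 4.65, 4.79, 4.89 and 4.91, at a smaller size (1.20, SE 0.29, adjusted p = 0.204), which did not pass. Nr1i2 was the sixth such gene, 7.33, 7.12, 6.21 and 7.02 against 7.604, 7.45, 8.01 and 7.59 (0.74, SE 0.40, adjusted p = 1). In all, 6 of the 37 genes had every treated library above every vehicle library, against 2.06% of all genes, and 0 had them below (1.11%). Each of the 4 called genes reached the smallest exact permutation p the design allows, 0.0286 (two-sided).

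Most differences of the other genes were also positive, without a call. Differences were positive for 28 and negative for 4 of the 35, with a median of 0.37 beside 0.04 over all genes, and 9 had an unadjusted p below 0.05, all higher, against 5.31% of all genes in either direction. The uncalled among these were Cyp2c65, Cyp2c68, Cyp2c40, Cyp2c23 and Cyp2d10. Some signs rested on few libraries: Cyp2a22 and Cyp2f2 were at their shared lowest value in 9 of 11 duodenal libraries, and Cyp2a12 and Cyp2c39 in 8. Close copies are also not independent. The most negative values were those of Cyp2d9, 4.79, 4.28, 2.58 and 5.64 with vehicle and 3.41, 4.41, 3.87 and 4.17 with WUSTL0717 (-0.36, SE 0.58, adjusted p = 1), and Cyp2u1, 1.59, 0.72, 2.45 and 1.17 against 1.46, 1.26, 1.03 and 0.88 (-0.32, SE 0.35, adjusted p = 1). Both overlapped widely. Nr1i3 was 4.63, 4.89, 4.62 and 4.89 with WUSTL0717, within 1 log2 unit of every vehicle library (0.07, SE 0.32, adjusted p = 1). Cyp2e1 was 5.01, 4.86, 4.43 and 4.80 with WUSTL0717 (0.11, SE 0.33, adjusted p = 1), and the signs for Nr1i3 and Cyp2e1 flipped with quantile normalization (-0.0544 and -0.0015). Cyp2r1 was 2.42, 2.44, 3.41 and 2.98 with vehicle and 3.73, 3.05, 3.53 and 3.37 with WUSTL0717 (0.60, SE 0.45, adjusted p = 1).

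With each of the 8 libraries left out in turn, Cyp2c29 stayed called in 8 of 8 fits (adjusted p 0.00441 to 0.0203), Cyp2c66 in 6 (0.0282 to 0.0633), Cyp2c55 in 2 (0.0154 to 0.0970) and Cyp2b10 in 0 (0.0584 to 0.143). The count was 1 without SBR WUSTL0717 library 3 or 4, 2 without SBR WUSTL0717 library 2 or SBR vehicle library 1, 2 or 4, and 3 otherwise, and without an estimate of spread shared between genes (an unmoderated test) 0 passed. The summed level of 8 enterocyte markers was 13.11 to 13.52 with vehicle and 13.85 to 14.73 with WUSTL0717, while 0 of the 8 were called and their median fold change was 0.03; the part of this in the result was not tested. In bulk tissue, a smaller number of cells of a type and less RNA per cell cannot be told apart.

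The same 4 genes were higher in SBR WUSTL0717 than in sham duodena, a comparison that shares the treated libraries (0.749% of all genes were called higher). Log2 fold changes against sham were 3.42 (SE 0.40, adjusted p = 0.00427) for Cyp2c29, 3.11 (SE 0.42, adjusted p = 0.00624) for Cyp2b10, 2.20 (SE 0.33, adjusted p = 0.0107) for Cyp2c66 and 2.67 (SE 0.51, adjusted p = 0.0348) for Cyp2c55. With each of 7 libraries left out in turn, Cyp2c29 and Cyp2b10 were called in 7 fits, Cyp2c66 in 5 (not without sham library 1 or 3) and Cyp2c55 in 0 (adjusted p 0.058 to 0.192). Over the other settings, Cyp2c29, Cyp2b10 and Cyp2c66 were each called in 8 of 10 and Cyp2c55 in 7 of 9. With the unmoderated test, or with the replicate number as a block, 0 of the 4 genes passed. The summed level of enterocyte markers was 12.32 to 13.55 in sham and 13.85 to 14.73 in treated duodena, that of immune markers 7.29 to 7.72 and 5.76 to 7.00, and that of Paneth markers 8.97 to 9.71 and 7.29 to 8.63; 1 of 8 enterocyte markers was called higher, 1 of 6 Paneth markers lower and 0 of 6 immune markers, and their part in the result was not tested. Nr1i2 was 7.604, 7.45, 8.01 and 7.59 in treated duodena, above all 3 sham libraries, but was not called (1.62, SE 0.43, adjusted p = 0.128).

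**Figure D2:**
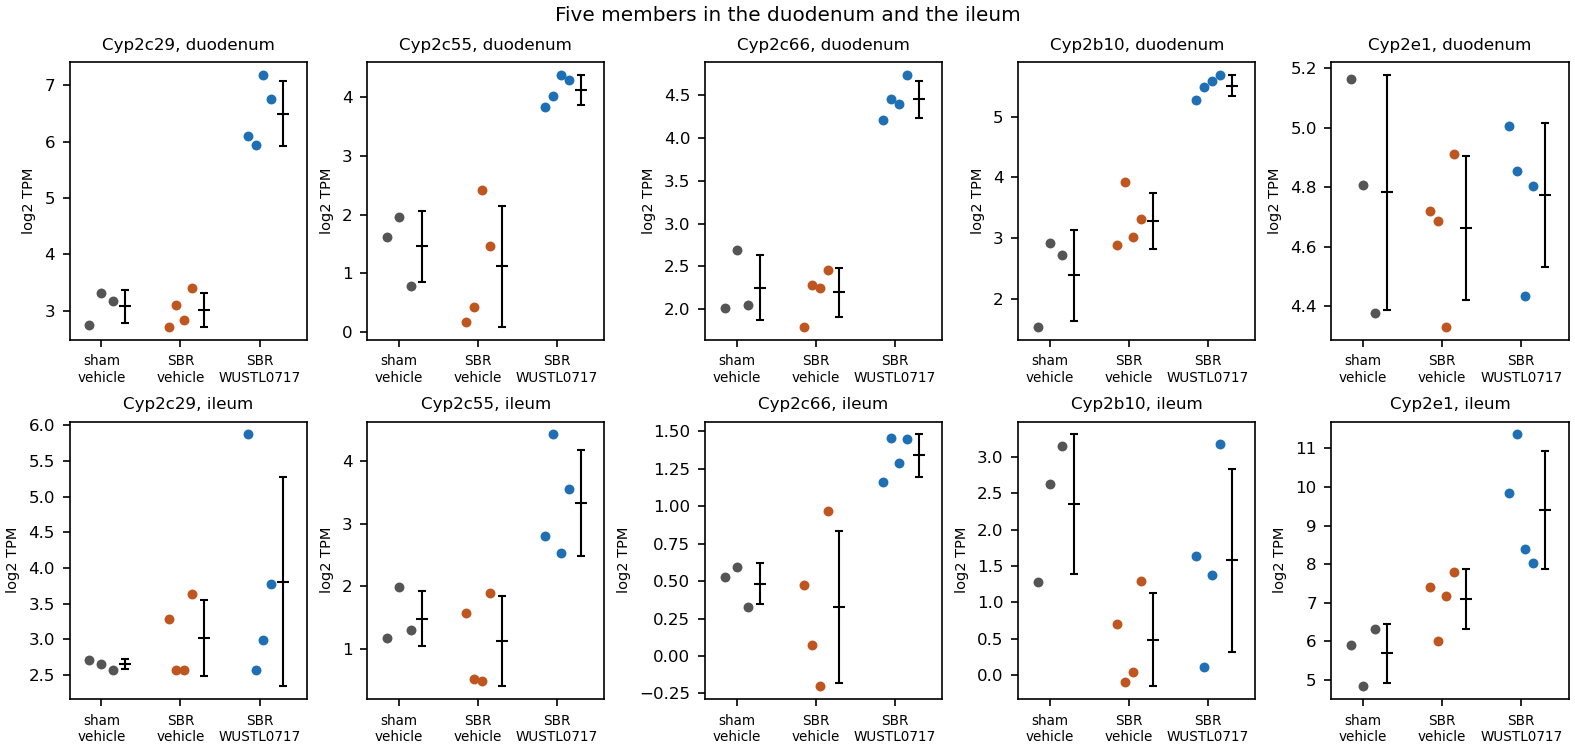
Points are libraries (log2 TPM) of 5 genes in the duodenum (upper row) and ileum (lower row) by group from left to right (sham vehicle, SBR vehicle, SBR WUSTL0717); black bars give the mean and SD. In the duodenum the treated libraries of Cyp2c29, Cyp2c55, Cyp2c66 and Cyp2b10 lie above all others, and in the ileum those of Cyp2c55, Cyp2c66 and Cyp2e1 lie above both other groups.

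In the ileum beyond the anastomosis, resection alone again gave no call: 0 of 35 genes passed (0.349% of all genes did), and 7 had an unadjusted p below 0.05, against 8.46% of all genes. Nr1i3 was 2.599, 2.79 and 2.68 in sham and 1.66, 1.16, 0.97 and 1.92 after SBR, every resected library below every sham library, with a difference of -1.26 (SE 0.31, adjusted p = 0.142). Cyp2d9 was 3.00, 2.38 and 3.00 in sham and 4.00, 4.69, 3.15 and 6.39 after SBR, every resected library above, with 1.76 (SE 0.57, adjusted p = 0.312). Neither passed, and 4 against 3 libraries cannot give an exact p below 0.0571. Cyp2b10 gave -1.86 (SE 0.65, adjusted p = 0.354), from 1.28, 2.63 and 3.15 in sham to 0.70, -0.10, 0.04 and 1.30 after SBR, and Cyp2d12 gave 1.44 (SE 0.53, adjusted p = 0.406), from 0.81, 0.89 and 1.36 in sham to 1.33, 2.50, 1.84 and 4.20 after SBR. In all, 2 genes had every SBR library above every sham library (6.71% of all genes) and 1 below (2.84%). SBR vehicle ileum 4 was the highest library of its group for Cyp2d9, Cyp2d10, Cyp2d12 and Cyp2d40, at 6.39, 6.24, 4.20 and 3.55.

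The remaining genes named by role overlapped between sham and SBR ileum. Nr1i2 was 4.74, 5.48 and 6.58 in sham and 5.51, 5.08, 4.72 and 6.07 after SBR (-0.26). Cyp2c29 was 2.72, 2.66 and 2.58 in sham and 3.28, 2.58, 2.58 and 3.64 after SBR (0.37); 2.58 is the lowest value, shared by several libraries, of this gene. Cyp2c55 was 1.17, 1.99 and 1.29 in sham against 1.58, 0.52, 0.49 and 1.89 after SBR (-0.36), and Cyp2r1 0.74, 1.53 and 1.29 in sham against 2.08, 1.19, 0.48 and 1.65 after SBR (0.16). Cyp2e1 was 5.90, 4.83 and 6.32 in sham and 7.42, 6.00, 7.17 and 7.80 after SBR (1.41, SE 0.73, adjusted p = 0.687), with only SBR library 2 inside the sham range.

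WUSTL0717 gave 0 calls among 35 family 2 genes in the ileum, where 0.0697% of all genes were called; 9 had an unadjusted p below 0.05 (7 higher, 2 lower), against 6.87% of all genes. Cyp2c55 was 1.58, 0.52, 0.49 and 1.89 with vehicle and 2.81, 4.43, 2.54 and 3.55 with WUSTL0717. The groups did not overlap, and the fold change was 2.21 (SE 0.45, adjusted p = 0.231). Cyp2e1 was 7.42, 6.00, 7.17 and 7.80 with vehicle and 9.86, 11.37, 8.39 and 8.02 with WUSTL0717, also without overlap (2.32, SE 0.68, adjusted p = 0.492). Its highest value, 11.37, was in the library with the highest hepatocyte marker level; without that library the fold change was 1.66 (SE 0.56, adjusted p = 0.288). Cyp2c66 had a mean below 1 here and was not tested, and its 4 treated libraries (1.16, 1.46, 1.29 and 1.45) lay above its 4 vehicle libraries (0.48, 0.07, -0.20 and 0.97).

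Cyp2d12 and Cyp2d9 had the most negative values in the ileum, -1.49 (SE 0.49, adjusted p = 0.561) and -1.36 (SE 0.53, adjusted p = 0.644); treated libraries had Cyp2d9 at 3.38, 3.02, 3.26 and 3.11. For Cyp2d12 all 4 treated libraries (0.84, 1.27, 1.05 and 0.75) were below all 4 vehicle libraries (1.33, 2.50, 1.84 and 4.20). In all, 3 of the 37 genes had the treated libraries entirely above (2.58% of all genes) and 1 entirely below (1.27%). Differences were positive for 29 and negative for 6 of 35, with a median of 0.37 beside 0.00 over all genes. Some of these signs rested on few libraries: Cyp2c50 was at its shared lowest value in 10 of 11 ileal libraries, and Cyp2a4, Cyp2b9 and Cyp2c39 in 9.

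The 2 genes best known as CAR targets overlapped between the ileal groups. Cyp2b10 was 1.64, 0.11, 1.38 and 3.18 with WUSTL0717 (1.09, SE 0.60, adjusted p = 0.817). Cyp2c29 was 5.88, 2.58, 3.00 and 3.78 with WUSTL0717 (0.79, SE 0.58, adjusted p = 0.899), and its highest value was in library 1 alone. Nr1i2 was 5.01, 6.23, 6.43 and 5.60 (0.47, SE 0.45, adjusted p = 0.936) and Nr1i3 1.34, 0.93, 1.45 and 2.09 (0.03, SE 0.29, adjusted p = 0.998), both within the range of vehicle or close to it, and the sign for Nr1i3 flipped in 3 of 8 fits with a library left out. Cyp2r1 was 2.08, 1.19, 0.48 and 1.65 with vehicle and 1.18, 2.68, 2.39 and 2.04 with WUSTL0717 (0.72, SE 0.39, adjusted p = 0.817).

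Against sham ileum, 2 genes were higher in SBR WUSTL0717 mice (1.66% of all genes were). Cyp2e1 was 5.90, 4.83 and 6.32 in sham, below all treated libraries, a fold change of 3.73 (SE 0.73, adjusted p = 0.0258), and it was 3.07 (SE 0.60, adjusted p = 0.0388) without the library high in hepatocyte markers. Cyp2j6, an arachidonic acid epoxygenase, was 4.60, 5.04 and 3.99 in sham and 5.42, 5.79, 6.14 and 6.19 in treated mice (1.35, SE 0.31, adjusted p = 0.0456). These calls were fragile: leaving out sham library 1 or 2 ended both, leaving out sham library 3 or SBR WUSTL0717 library 2, 3 or 4 ended that of Cyp2j6, and leaving out SBR WUSTL0717 library 1 ended that of Cyp2e1. Both were also lost with the unmoderated test, with the groups compared alone and with the replicate number as a block. Over 10 such settings, Cyp2e1 was called in 7 and Cyp2j6 in 5. The summed level of goblet markers was 8.33 to 8.73 in sham and 9.33 to 9.75 in treated ilea (1 of 6 called higher), and that of immune markers 8.33 to 9.70 and 7.82 to 8.26 (1 of 6 called lower); their part in the result was not tested.

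Whether duodenum and ileum responded differently was tested in 1 fit of all 22 intestinal libraries. For resection, 0 of 36 genes passed (0.0754% of all genes did) and 3 had an unadjusted p below 0.05 (13.8% of all). Nr1i3 came nearest, with a difference in effect, duodenum minus ileum, of 1.88 (SE 0.43, adjusted p = 0.0991), and Cyp2b10 followed with 2.76 (SE 0.78, adjusted p = 0.201). For WUSTL0717, 0 of 36 passed (0.0251% of all) and 4 had an unadjusted p below 0.05 (3.33% of all): Cyp2c29 with 2.69 (SE 0.70, adjusted p = 0.601), Cyp2c66 with 1.24 (SE 0.36, adjusted p = 0.833), Cyp2e1 with -2.20 (SE 0.78, adjusted p = 1) and Cyp2d12 with 1.33 (SE 0.54, adjusted p = 1). Cyp2c66 and Cyp2d12 entered this fit only through the region where each is higher, the duodenum and the ileum, so their values add no support. The calls in the duodenum and their absence in the ileum are thus not shown to differ. Without SBR WUSTL0717 ileum 1 the Cyp2c29 difference passed, and without SBR vehicle duodenum 1 that of Nr1i3 did.

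**Figure D3:**
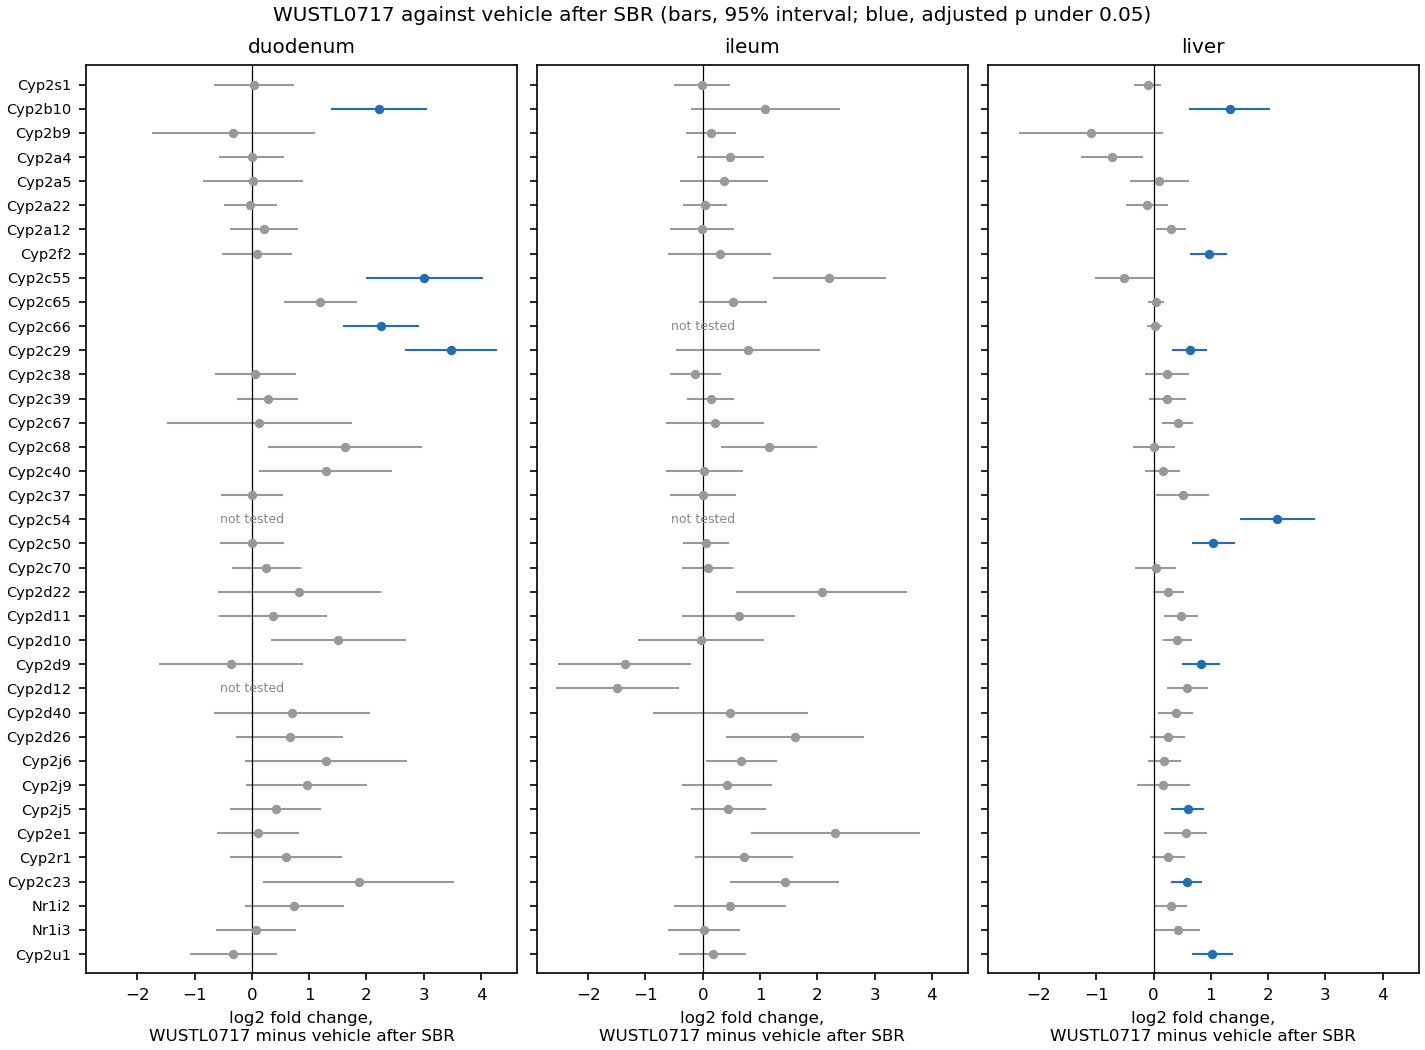
Log2 fold change of WUSTL0717 against vehicle after SBR for each gene (points, with 95% interval), in duodenum, ileum and liver; blue marks an adjusted p under 0.05. Blue points number 9 for the liver, 4 for the duodenum and 0 for the ileum, and most points of each tissue lie to the right of 0. In simulated data, changes of equal size were called less often in the gut than in the liver, so these numbers are not comparable.

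In the liver, resection moved 24 of the 37 genes, 8 higher and 16 lower in SBR vehicle than in sham. Among all genes tested, 37.4% were called higher and 4.47% lower, and the median fold change was 0.25 over all genes and -0.22 over these 37. Every sham library lay above every SBR vehicle library for 15 of the 37 genes, against 1.62% of all genes, and below for 4, against 15.5%. By cluster, on chromosome 7, 6 of 8 genes were higher and 1 lower, on chromosome 19, 2 of 13 were higher and 5 lower, and on chromosome 15, 5 of 7 were lower and 0 higher. Centring each library on its median changed the split to 5 higher and 25 lower and moved the median of all genes from 0.25 to -0.06; Cyp2a5, Cyp2b10 and Cyp2s1 were then no longer called.

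**Figure D4:**
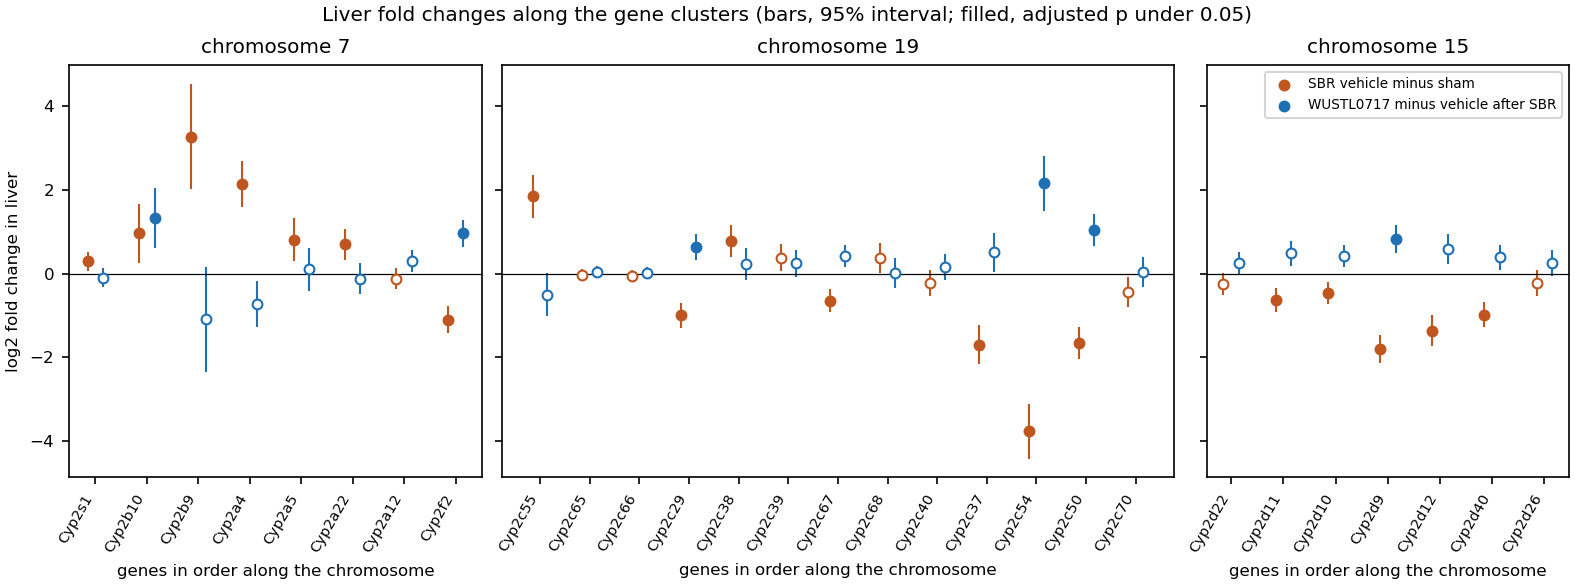
Log2 fold change in liver (points, with 95% interval) for genes in their order along the clusters of chromosomes 7, 19 and 15; orange is SBR vehicle minus sham, blue is WUSTL0717 minus vehicle after SBR, and filled points have an adjusted p under 0.05. After SBR, 6 genes of chromosome 7 were higher and 5 of chromosome 15 lower.

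The genes lowered by resection included widely studied hepatic oxidases. Cyp2e1 was 7.74, 7.49, 7.68, 7.94 and 7.82 in the 5 sham livers and 6.13 to 7.36 with a median of 6.83 in the 8 SBR vehicle livers, without overlap, a fold change of -0.92 (SE 0.18, adjusted p = 0.000453). Cyp2f2, a periportal enzyme known for naphthalene oxidation, was 5.92, 5.77, 5.88, 5.91 and 5.90 in sham and 4.22 to 5.47 with a median of 4.73 after SBR (-1.11, SE 0.16, adjusted p = 1.56e-05). Cyp2u1 was 5.37, 5.19, 5.84, 5.10 and 5.23 in sham and 2.33 to 3.34 with a median of 2.77 after SBR, a gap of over 1 log2 unit between the groups, with -2.53 (SE 0.17, adjusted p = 1.00e-08). Cyp2c23, an arachidonic acid epoxygenase outside the cluster, fell from 5.60, 5.57, 5.76, 5.76 and 5.44 to 3.93 to 4.70 with a median of 4.17 (-1.37, SE 0.13, adjusted p = 1.90e-07).

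Of the close copies in the chromosome 19 cluster, Cyp2c54, Cyp2c37 and Cyp2c50 fell, while Cyp2c67 and Cyp2c68, 96.6% identical, gave -0.65 (called lower) and 0.38 (adjusted p = 0.0803), and Cyp2c40, 93.8% identical to Cyp2c67, gave -0.22 (adjusted p = 0.224). Cyp2c54 was 7.64, 6.85, 7.24, 8.04 and 7.598 in sham and 3.08 to 4.72 with a median of 3.59 after SBR, a fold change of -3.77 (SE 0.31, adjusted p = 5.45e-08) on its own scale, as above. Cyp2c37, 92.7% identical to Cyp2c54, was 4.77, 4.63, 4.98, 5.43 and 4.79 in sham and 2.53 to 3.94 with a median of 3.15 after SBR (-1.71, SE 0.22, adjusted p = 6.43e-06). Cyp2c50, 95.2% identical to Cyp2c37, was 4.92, 4.64, 4.98, 5.32 and 4.95 in sham and 2.75 to 3.88 with a median of 3.36 after SBR (-1.66, SE 0.18, adjusted p = 8.94e-07). No library of Cyp2c54, Cyp2c37 or Cyp2c50 overlapped between the groups, and since they share sequence their falls are not independent measurements. Cyp2c29 fell as well, from 4.85, 4.96, 5.58, 5.49 and 5.10 to 3.79 to 4.55 with a median of 4.23 (-0.999, SE 0.15, adjusted p = 2.38e-05). Cyp2c70, the enzyme that makes muricholic acids in mice, gave -0.44 (SE 0.17, adjusted p = 0.0508) and just missed the threshold.

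In the Cyp2d cluster, the male-biased steroid hydroxylase Cyp2d9 was 5.84, 5.90, 5.95, 5.65 and 5.90 in sham and 3.53 to 4.57 with a median of 4.18 after SBR (-1.80, SE 0.16, adjusted p = 1.11e-07). Cyp2d12 was 2.43, 2.64, 2.50, 1.89 and 2.35 in sham and 0.57 to 1.64 with a median of 0.94 after SBR (-1.36, SE 0.17, adjusted p = 4.62e-06). Cyp2d10, Cyp2d11 and Cyp2d40 were also lower, with fold changes of -0.46, -0.63 and -0.99, and all 5 were lower without overlap. Cyp2d22 and Cyp2d26 gave -0.25 and -0.22 and were not called. Cyp2c67 and Cyp2j5 were the remaining Cyp2 genes called lower, with -0.65 and -0.75.

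Among the genes raised by resection in the liver, Cyp2a4, Cyp2c55 and Cyp2b9 had the largest fold changes. Cyp2b9 reached the mean of 1 needed for testing only through the SBR groups, where it is high, so its test adds no support. Known as female-biased in mouse liver, it was -0.51, -0.55, -0.08, 0.71 and -0.54 in sham and 1.48 to 5.11 with a median of 2.69 after SBR, with 3.27 (SE 0.60, adjusted p = 0.000254). Cyp2a4, a female-biased steroid hydroxylase, was 2.74, 1.83, 2.23, 2.47 and 2.38 in sham and 3.94 to 5.24 with a median of 4.42 after SBR (2.15, SE 0.26, adjusted p = 3.27e-06). Cyp2c55 was 1.44, 1.28, 1.56, 1.48 and 1.47 in sham and 2.68 to 3.81 with a median of 3.36 after SBR (1.84, SE 0.25, adjusted p = 8.80e-06). All 8 SBR vehicle livers exceeded all 5 sham livers for these 3 genes. Cyp2b10 overlapped between the groups, 1.80, 1.43, 1.68, 2.54 and 1.40 against 1.91 to 4.24 with a median of 2.46, and rose by less (0.96, SE 0.34, adjusted p = 0.029). Cyp2a5, Cyp2a22, Cyp2c38 and Cyp2s1 were higher by 0.81, 0.70, 0.78 and 0.30. Cyp2r1 was 2.87, 2.64, 2.99, 3.07 and 2.69 in sham and 2.00 to 3.14 with a median of 2.79 after SBR (-0.10, SE 0.14, adjusted p = 0.585) and was not called.

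Of the receptor genes, Nr1i3 was lower after SBR, 3.82, 3.84, 3.96, 4.67 and 4.21 in sham against 3.06 to 4.03 with a median of 3.61, with overlap and -0.52 (SE 0.19, adjusted p = 0.0337). Nr1i2 was 6.81, 6.67, 6.72, 7.14 and 6.82 in sham and 6.36 to 7.34 with a median of 6.84 after SBR (0.08, SE 0.13, adjusted p = 0.639). The sign for Nr1i2 flipped when libraries were centred (-0.22) or quantile normalized (-0.12). With each of 13 libraries left out in turn, 20 of the 24 called genes passed in all 13 fits; the exceptions were Cyp2a5 (12 of 13), Cyp2b10 and Nr1i3 (8 each) and Cyp2s1 (6). Nr1i3 was also not called with library weights (adjusted p = 0.0533) or the unmoderated test (0.0532).

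Markers of other liver cells moved with resection. All 5 cholangiocyte markers and all 6 fibroblast and stellate markers were called higher in SBR vehicle livers. For this and the marker counts that follow, 37.4% of all genes were called higher and 4.47% lower. The summed cholangiocyte level was 6.07 to 7.39 in sham, 8.51 to 9.54 in SBR vehicle and 7.71 to 8.93 in SBR WUSTL0717 livers, and that of fibroblast and stellate markers 6.43 to 6.98, 8.37 to 9.19 and 7.59 to 8.51. Of 6 immune markers, 3 were called higher, and their summed level was 7.12 to 7.62 in sham, 7.82 to 8.72 in SBR vehicle and 7.90 to 8.50 in SBR WUSTL0717 livers. Of 8 hepatocyte markers, 1 was called higher and 2 lower, and their summed level was 10.69 to 11.12 in sham and 9.64 to 10.87 after SBR. Of 10 periportal markers 1 was higher and 7 lower, and of 10 pericentral markers 2 were higher and 5 lower. Their part in the falls and rises of the family 2 genes was not tested. Without SBR vehicle liver 7, high in acinar markers, 25 genes were called, and without SBR vehicle liver 2, low in hepatocyte markers, 27.

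**Figure D5:**
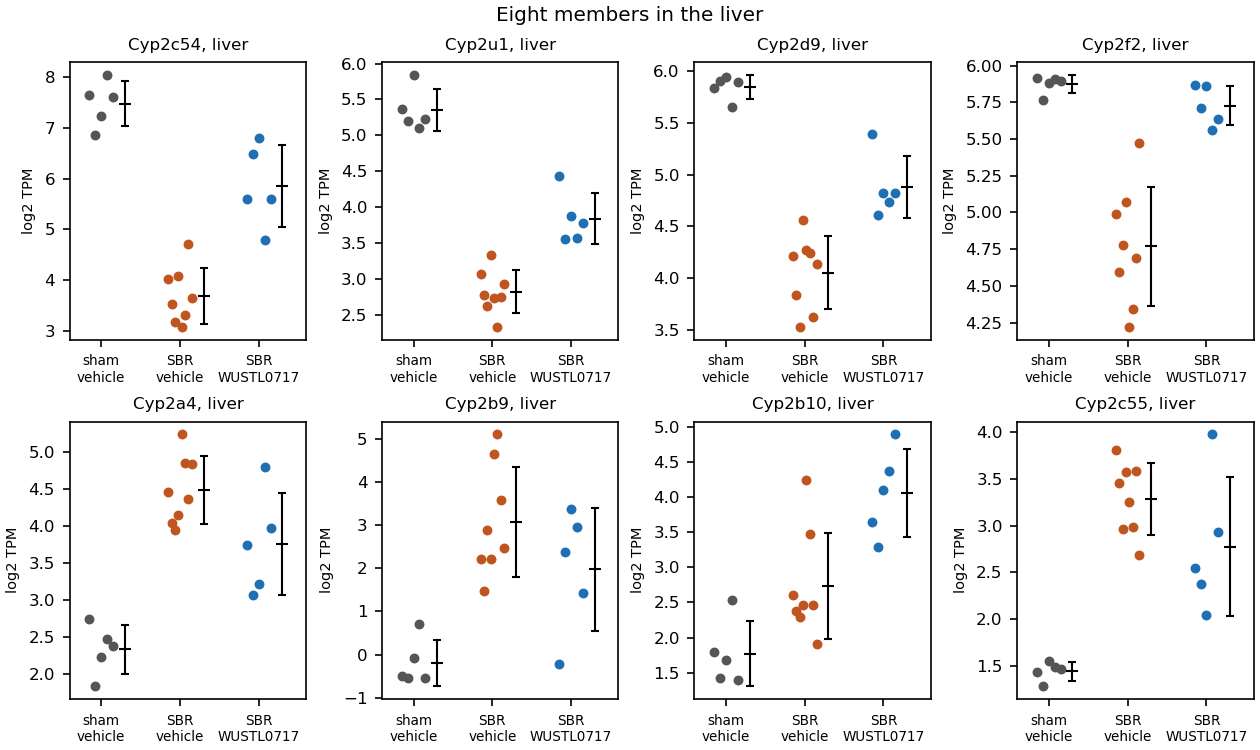
Points are liver libraries (log2 TPM) of 8 genes by group from left to right (sham vehicle, SBR vehicle, SBR WUSTL0717); black bars give the mean and SD. Cyp2c54, Cyp2u1, Cyp2d9 and Cyp2f2 were lower and Cyp2a4, Cyp2b9 and Cyp2c55 higher in every SBR vehicle liver than in any sham liver.

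With WUSTL0717, 9 of 37 genes were higher in the liver than with vehicle (1.44% of all genes were), and 0 were lower (2.66%). After centring, the split was 19 higher and 1 lower, and with library weights 13 higher and 3 lower. The 9 were Cyp2c54, Cyp2f2, Cyp2u1, Cyp2c50, Cyp2d9, Cyp2c23, Cyp2c29, Cyp2j5 and Cyp2b10. Differences were positive for 32 and negative for 5 of 37, with a median of 0.30 beside 0.02 over all genes. For 9 genes all 5 treated livers lay above all 8 vehicle livers, against 1.23% of all genes, and for 0 below (0.307%); of the 9 that lay above, Cyp2c67 and Cyp2d10 were not called. This comparison and that of SBR vehicle with sham share the SBR vehicle livers, so their values are given side by side and their relation is not a result.

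Cyp2c54 was 5.61, 6.48, 6.81, 4.79 and 5.60 in SBR WUSTL0717 livers, above every vehicle and below every sham library (2.16, SE 0.31, adjusted p = 0.00234). Cyp2u1 was 4.43, 3.55, 3.88, 3.57 and 3.78, likewise between the groups (1.02, SE 0.17, adjusted p = 0.0062). Cyp2f2 was 5.87, 5.71, 5.86, 5.56 and 5.64, and its treated livers reached into the narrow sham range (0.96, SE 0.16, adjusted p = 0.00609). Side by side, the changes after SBR and with WUSTL0717 were -3.77 and 2.16 for Cyp2c54, -2.53 and 1.02 for Cyp2u1, and -1.11 and 0.96 for Cyp2f2.

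Cyp2c50 was 4.10, 4.70, 4.82, 3.91 and 4.18 with WUSTL0717 (1.04, SE 0.18, adjusted p = 0.00689), and Cyp2d9 was 5.40, 4.61, 4.83, 4.74 and 4.83 (0.83, SE 0.16, adjusted p = 0.00994). Both lay above all vehicle livers. Cyp2c29 was 4.76, 4.95, 5.03, 4.65 and 4.77 (0.63, SE 0.15, adjusted p = 0.0214), and Cyp2j5 was 4.83, 4.84, 5.09, 4.75 and 4.76 (0.59, SE 0.14, adjusted p = 0.0215), where vehicle livers had it at 3.60 to 4.57 with a median of 4.34. Neither overlapped with vehicle. Cyp2c23 was 5.15, 4.86, 4.73, 4.69 and 4.74 (0.58, SE 0.13, adjusted p = 0.0175) and overlapped vehicle by 1 value.

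Cyp2b10, called higher both after SBR and with WUSTL0717, was 3.64, 3.28, 4.10, 4.37 and 4.89 in treated livers (1.33, SE 0.34, adjusted p = 0.0324) and above all sham livers. Its change after SBR, 0.96, was no longer called without sham library 1, 2, 3 or 5 or SBR vehicle library 6 (adjusted p 0.0504 to 0.0782). SBR vehicle livers with Cyp2b10 at 4.24 and 3.47 overlapped the treated group. Cyp2b9 and Cyp2a4 gave the most negative values with WUSTL0717, -1.10 (SE 0.60, adjusted p = 0.375) and -0.73 (SE 0.26, adjusted p = 0.138), and Cyp2c55 gave -0.51 (SE 0.25, adjusted p = 0.294), none of them called. Treated livers had Cyp2b9 at -0.21, 2.37, 3.38, 2.95 and 1.43, Cyp2a4 at 3.74, 3.07, 3.21, 4.80 and 3.97 and Cyp2c55 at 2.54, 2.38, 2.05, 3.98 and 2.94. SBR WUSTL0717 liver 4 was the highest of its group for Cyp2a4 and Cyp2c55, and without it both were called lower. Nr1i2 was 7.09, 7.17, 7.20, 7.47 and 7.13 (0.30, SE 0.13, adjusted p = 0.258) and Nr1i3 3.66, 4.26, 4.47, 4.11 and 3.51 (0.42, SE 0.19, adjusted p = 0.253) in treated livers. Neither receptor gene was called, nor was Cyp2e1 at 7.22, 7.59, 7.71, 7.30 and 7.04 (0.56, SE 0.18, adjusted p = 0.0916) or Cyp2r1 at 3.01, 3.01, 3.04, 2.97 and 3.03 (0.26, SE 0.14, adjusted p = 0.356).

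Cyp2c54, Cyp2f2, Cyp2u1, Cyp2c50 and Cyp2d9 passed in all 13 fits with a library left out. Without SBR WUSTL0717 library 1, 2 or 3, only these 5 passed, and Cyp2b10, Cyp2c23, Cyp2c29 and Cyp2j5 did not. Cyp2b10 was also lost without SBR WUSTL0717 library 5 or SBR vehicle library 1, 7 or 8. With the unmoderated test, 0 of the 37 genes passed, and 0 of all genes. Of the markers, 4 of 5 cholangiocyte and 4 of 6 fibroblast and stellate genes were called lower with WUSTL0717 (2.66% of all genes). Of the hepatocyte genes, 0 of 8 were called. The part of these markers in the result was not tested.

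Compared with sham, SBR WUSTL0717 livers had 8 family 2 genes higher and 8 lower, where 27.9% of all genes were called higher and 0.906% lower. Cyp2b10 gave the highest of these fold changes (2.29, SE 0.37, adjusted p = 0.000446), followed by Cyp2b9 (2.18, SE 0.67, adjusted p = 0.022), whose test adds no support, as above, and which passed in 7 of 10 fits with a library left out (not without sham library 2 or SBR WUSTL0717 library 3 or 4). Cyp2a4 and Cyp2c55 gave 1.43 and 1.33. Cyp2c38 was 2.55, 2.78, 3.09, 3.59 and 2.95 in sham and 3.97, 3.87, 4.05, 4.02 and 4.14 in treated livers (1.02, SE 0.20, adjusted p = 0.0019). The lower genes included Cyp2c54 (-1.61, SE 0.35, adjusted p = 0.00298), Cyp2u1 (-1.51, SE 0.19, adjusted p = 4.47e-05), Cyp2c37 (-1.20, SE 0.25, adjusted p = 0.00217), Cyp2d9 (-0.97, SE 0.18, adjusted p = 0.000936), Cyp2c23 (-0.79) and Cyp2d12 (-0.77). Treated livers had Cyp2c37 at 3.48, 3.91, 4.18, 3.41 and 3.64 and Cyp2d12 at 2.03, 1.19, 1.66, 1.34 and 1.71. After centring, the split was 4 higher and 20 lower. Cyp2e1, Cyp2c29 and Cyp2f2 were not called in this comparison, with -0.36, -0.36 and -0.15. Summed cholangiocyte markers were 6.07 to 7.39 in sham and 7.71 to 8.93 in treated livers. Those of fibroblast and stellate cells were 6.43 to 6.98 and 7.59 to 8.51, and of immune cells 7.12 to 7.62 and 7.90 to 8.50. Hepatocyte markers overlapped (10.69 to 11.12 and 10.66 to 11.22). The part of these markers in the result was not tested.

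Other genes of the same pathways were described by lists drawn up with earlier results of these data known. Of 20 tested conjugation and transport genes known as PXR or CAR targets, 4 were higher with WUSTL0717 in the duodenum (0.252% of all genes): the carboxylesterase Ces2a (3.83, adjusted p = 0.00306), the epoxide hydrolase Ephx1 (3.77, adjusted p = 0.00508), the retinal dehydrogenase Aldh1a1 (3.03, adjusted p = 0.0284) and the glucuronosyltransferase Ugt1a9 (2.54, adjusted p = 0.0247). The median fold change of the 20 was 1.05, beside 0.04 over all genes. In the ileum 1 of 20 was higher (0.0697% of all genes were called), Ces2a (2.54, adjusted p = 0.00678). Ephx1 and Ugt1a9 differed in response between duodenum and ileum, with differences of 3.498, adjusted p = 0.0106, and 2.49, adjusted p = 0.0445. Cytochromes of families 1 and 3 gave 0 calls of 9 in the duodenum and 0 of 8 in the ileum, with Cyp3a11 at 1.07, adjusted p = 0.902 and 1.84, adjusted p = 0.422. Of 7 electron donor and haem supply genes, 0 were called in either.

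In the liver after SBR, 12 of 20 conjugation and transport genes were higher and 2 lower, against 37.4% and 4.47% of all genes, with a median of 0.48 beside 0.25 over all genes. The glutathione transferases Gsta1 (3.94, adjusted p = 3.50e-07) and Gstm3 (3.82, adjusted p = 1.08e-07) and the exporter Abcc4 (1.96, adjusted p = 5.32e-07) were among the higher, and Sult2a8 (-2.54, adjusted p = 3.06e-08) and Ces2a (-0.67, adjusted p = 0.000749) were lower. Cytochromes of families 1 and 3 split into 5 higher and 2 lower of 9 against the same shares, with Cyp3a11 at 1.61, adjusted p = 8.76e-07 and Cyp1a2 at -0.58, adjusted p = 0.000413. Of the electron donor and haem supply genes 1 of 7 was called, a smaller share than among all genes. It was the haem oxygenase Hmox1 (0.81, adjusted p = 0.000551), while the electron donor Por gave 0.27, adjusted p = 0.213. Of 12 partners and hepatic regulators, 3 were higher, a smaller share than among all genes (Stat5a, Ahr and Arnt), and 2 were lower (Cebpa and Nr0b2). With WUSTL0717, Sult2a8 (1.73, adjusted p = 0.000741), Ces2a (0.56, adjusted p = 0.0303) and the corepressor Nr0b2 (1.16, adjusted p = 0.0358) were higher in the liver.

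Genes with a known sex bias in mouse liver were examined in these male mice. After SBR, 10 of 10 tested male-biased genes were lower (4.47% of all genes), with a median of -2.29, and 7 of 8 female-biased genes were higher (37.4% of all genes), with a median of 1.19, beside 0.25 over all genes. Cyp2d9 belongs to the first list and Cyp2a4, Cyp2b9 and Cyp2c40 to the second, of which Cyp2c40 (-0.22) was the gene not called. Cyp2b9 counts among the 7 and adds no support, as above, and 6 of the 14 female-biased genes listed were not analysed here. Examples outside family 2 were the steroid hydroxylase Cyp7b1 (-2.39, adjusted p = 1.04e-08), the transporter Slco1a1 (-3.71, adjusted p = 1.93e-08) and the elongase Elovl3 (-3.71, adjusted p = 1.26e-07) among male-biased genes, and Fmo2 (1.15, adjusted p = 0.000402) among female-biased. With WUSTL0717, 6 of 10 male-biased genes were higher than with vehicle (1.44% of all genes), among them Cyp4a12a (1.97, adjusted p = 0.00401) and Elovl3 (2.14, adjusted p = 0.0041), and 0 of 8 female-biased genes were called.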

How the data were processed

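Bulk RNA-seq was available for 40 libraries of 3 tissues. Per the labels and methods, the authors depleted ribosomal RNA, aligned reads with STAR to the mouse genome (GRCm38, Ensembl annotation), counted uniquely aligned reads per gene with featureCounts, normalized them by TMM in edgeR, and deposited log2 TPM after ComBat correction of batch effects; the labels list intestine and liver as different batches. The deposited log2 TPM values hold no counts, so no counting interval could be given. Genes at 0 in every library of a batch appear, from the values, to be uncorrected.

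Here, limma 3.58.1 in R 4.3.3 was fitted per tissue to the 3 groups, with a variance trend, on genes with a mean of at least 1, and p-values were Benjamini-Hochberg adjusted over all genes tested (threshold 0.05). Comparisons between gut regions came from 1 fit of 22 libraries. Exact two-sided permutation tests (scipy 1.17.1) compared single genes. The members and lists were chosen with earlier results of these data known. Full values were given for genes called (the 10 with the smallest p where more passed), the 2 with the largest change in each direction, and 8 genes chosen by role. Alternatives were pseudocount, filter, normalization, library weights, the unmoderated test, the replicate block, groups compared alone, and each library left out. Replicate numbers were not treated as pairs, since no label ties them to a mouse. Deviations of same-numbered libraries from their group means correlated from -0.32 to 0.45 over 46 pairs (11 over 0.1). Duodenum and ileum of a group may come from the same mice. Between these regions, correlations were 0.358, 0.069 and 0.446 in sham and 0.131, -0.002, -0.136 and 0.085 with SBR vehicle. With SBR WUSTL0717 they were -0.081, 0.322, -0.067 and 0.205. Comparisons between the regions treated these libraries as independent. Scripts were tested on simulated data. Of 100 genes changed by 1 log2 unit, 0 (SBR) and 2 (WUSTL0717) were called in the duodenum and 11 (WUSTL0717) in the ileum. In the liver, 82 (SBR) and 93 (WUSTL0717) were called. At 2 log2 units these numbers were 29, 24, 64, 93 and 96, in the same order. A missing call in the gut thus does not show that a gene was unchanged.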

Additional observations from a re-analysis of the deposited data

Results flagged for a closer look

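Of 117 groups of 4 to 10 libraries examined, 6 held a library far from the others; chance alone gives about 1 in 20. In the duodenum, Cyp2a5 was 4.589 in SBR vehicle library 3 and 4.652 in SBR WUSTL0717 library 1, while the other libraries of those groups were at their shared lowest value. In the liver, Cyp2d9 was 5.398 in SBR WUSTL0717 library 1 (next 4.826), Cyp2j5 was 5.086 in SBR WUSTL0717 library 3 (next 4.839), Cyp2f2 was 5.765 in sham library 2 (next 5.883), and Cyp2r1 was 2.005 in SBR vehicle library 2 (next 2.716), the library lowest in hepatocyte markers.

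After resection Nr1i3 gave values of opposite sign in the gut regions, called in neither. It gave 0.621 in the duodenum, where every SBR library was above sham (1 of the 37 genes and 3.32% of all). In the ileum it gave -1.263, and every SBR library was below sham (1 of the 37 and 2.84% of all). These shares were near those of all genes. The interaction had an adjusted p of 0.0991 (limma). Cyp2d9 was higher in every SBR ileum than in sham, by 1.763 (2 of the 37 genes and 6.71% of all were so placed). It was lower in every SBR liver, by -1.796 (15 of the 37 and 1.62% of all). This difference was not tested, since the labels put the tissues in separate batches.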

How the results depend on the processing

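The values hold no counts, so what sequencing depth limits is unknown; the intestinal comparisons rest on groups of 3 or 4. Of the results recomputed under the alternatives, 1977 were scored as kept. For a single gene this meant the same direction and side of the threshold. For a count of calls it meant an equal or similar count, though the genes called could differ. Among single genes, 146 values lost a call, 11 gained one and 26 changed sign, and 44 counts moved further. The cause was not tested. Calls of family 2 genes after SBR in the liver (24) ranged from 19 to 30 over the settings and from 21 to 27 with a library left out. The 4 calls with WUSTL0717 in the duodenum became 2 with quantile normalization, 2 when the groups were compared alone, 0 with the unmoderated test and 1 to 3 with a library left out. The 4 calls of SBR WUSTL0717 against sham duodenum became 0 with the unmoderated test, 7 with library weights and 2 to 3 with a library left out. In the ileum, library weights gave 1 call after SBR (Nr1i3, lower), and the 2 calls of SBR WUSTL0717 against sham became 0 with the unmoderated test, 4 with library weights, 0 with the groups compared alone and 0 to 2 with a library left out. The 9 calls with WUSTL0717 in the liver became 20 (19 higher, 1 lower) with centring, 18 with quantile normalization, 16 with library weights, 0 with the unmoderated test and 5 to 13 with a library left out. The 16 calls of SBR WUSTL0717 against sham liver became 10 with a filter at a mean of 3, 24 with centring, 24 with quantile normalization, 22 with library weights, 20 with the groups compared alone and 12 to 16 with a library left out. Between sham duodenum and ileum, 5 calls became 8 with centring, 8 with quantile normalization, 8 with library weights, 3 with the unmoderated test and 5 to 6 with a library left out. The interaction for SBR gave 1 call with centring, 1 with quantile normalization, 2 with library weights and 0 to 1 with a library left out, and that for WUSTL0717 gave 1 with a pseudocount of 5 (Cyp2c66) and 0 to 1 with a library left out.

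Signs changed for small differences. After SBR in the duodenum, Cyp2c29 was 0.34 with centring, 0.37 with quantile normalization and -0.23 to 0.0561 with a library left out (0.0337 without SBR vehicle library 1), Cyp2c55 was 0.0612 and 0.0055 in the first 2 of these, Cyp2e1 was 0.28, 0.0646 and -0.32 to 0.0696, and Cyp2r1 ranged from -0.32 to 0.68 with a library left out. With WUSTL0717 in the duodenum, Cyp2e1 was -0.0015 and Nr1i3 -0.0544 with quantile normalization, -0.0569 and -0.0187 with library weights, and Cyp2d9 ranged from -0.94 to 0.0826 with a library left out. In the ileum, such ranges were -0.0799 to 0.45 for Cyp2r1 and -0.69 to 0.23 for Nr1i2 after SBR, and -0.19 to 0.20 for Nr1i3 with WUSTL0717. In the liver after SBR, Cyp2s1 was -0.0108 with centring and -0.0191 with quantile normalization, Nr1i2 -0.22 and -0.12, and Cyp2r1 ranged from -0.16 to 0.0058 with a library left out.

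The labels do not say whether samples that share a replicate number share a mouse. With the replicate number as a block, calls with WUSTL0717 in the duodenum fell from 4 to 1 (Cyp2c29), those of SBR WUSTL0717 against sham fell to 0 of 4 in duodenum and 0 of 2 in ileum, and those in the liver were 24 after SBR, of which 23 were the same genes (Nr1i3 lost, adjusted p = 0.0611, Cyp2c70 gained), and 9 with WUSTL0717, of which 7 were the same (Cyp2b10 and Cyp2c29 lost, Cyp2c67 and Cyp2d40 gained).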
